A study of Mus musculus with 4 samples.

Results

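Nasal cartilage chondrocytes of the mouse embryo are described here, in droplet single-cell RNA libraries of whole noses at embryonic day 14.5. A cell was taken as a chondrocyte when it held at least 5 UMIs of Col2a1, at least 1 UMI of 3 or more of Matn1, Acan, Col9a1, Col9a2, Col9a3, Hapln1, Cnmd and Snorc, and no UMI of Sp7, the osteoblast transcription factor. UMIs are barcodes added to each RNA molecule before amplification, so that copies of 1 molecule count once. Of 13739 cells that had 500 or more genes and no more than 10% of UMIs from mitochondrial genes, 289 met this rule. The 4 libraries fell into 2 groups of 2: control 1 and control 2, titled WT, and mutant 1 and mutant 2, titled Sox10Cre/Yap/Taz cKO. The genotype label of the mutants is Tg(Sox10-cre)1Wdr with Yapflox and Tazflox on C57Bl/6J, and the series design gives it as Sox10cre; yap flox/WT; taz flox/flox, so 1 Yap allele was wild type by design. For the controls the sources disagree: the sample label names C57Bl/6J, while the series design names yap flox/flox; taz flox/flox without Cre. Sox10 is active in the neural crest, from which most of the nasal skeleton arises, and also in glia and melanocytes, so the Cre acts in more than cartilage. The labels name 2 noses per genotype and 2 service providers, but not the provider of each library, so provider and genotype cannot be told apart, and nothing says more of how the libraries of a group differ. A further sample that the protocol speaks of was not analysed here.

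Cartilage is laid down by chondrocytes as a gel of fibrils of collagen types II, IX and XI, filled with aggrecan, a core protein that carries sulfated glycosaminoglycan chains and holds water. The transcription factor SOX9, with SOX5 and SOX6, switches on the genes of this matrix, and cells of the surrounding perichondrium, which make type I collagen, are recruited into the cartilage as it grows. The nasal capsule and septum stay cartilage through much of fetal life and do not first pass through the hypertrophic, mineralising stage of a growth plate. YAP and TAZ, the products of Yap1 and Wwtr1, are coactivators that carry mechanical and Hippo pathway signals to TEAD factors at genes such as Ccn1 and Ccn2.

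Control 1 held 103 of them, control 2 held 47, mutant 1 held 36 and mutant 2 held 103. Their summed UMIs came to 969726, 456031, 509413 and 726942, with a median per cell of 8496, 8876, 11601.5 and 6926. All levels below are UMIs scaled to a sum of 1000000 (CPM), so a few deep cells weigh heavily. Pairs of libraries shared 3 to 5 barcodes among kept cells and 0 among chondrocytes.

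Some members carried RNA of other cell types, and this differed between libraries. In mutant 2, 22 of the 103 chondrocytes held UMIs of more than 1 of 6 endothelium markers, against 0, 0 and 1 in control 1, control 2 and mutant 1. The 22 cells were shallow, with a median of 3665 UMIs against 7834 for the other members of that library, and 18 of them lay in the middle range of Col2a1 defined below. The 6 endothelium markers summed to 15.5, 10.96, 25.5 and 230 CPM in control 1, control 2, mutant 1 and mutant 2, and 7 osteoblast markers to 25.8, 26.3, 17.7 and 294 CPM. Sp7 was at 0 by the rule. More than 1 of 6 epithelium markers was held by 2, 1, 1 and 5 members, and these markers summed to 239, 184, 467 and 52.3 CPM. In control 1, control 2 and mutant 1 a single very deep cell held the most Epcam, while in mutant 2 the member with the most Epcam had 9612 UMIs, 2 of them Epcam. That cell in mutant 1 held 100451 of that library's 509413 member UMIs, with 115 UMIs of Epcam, an epithelial adhesion gene, and 31 of Col2a1. That in control 1 held 92538 UMIs, with 67 of Epcam and 10 of Col2a1. Neuron markers were the most frequent in both controls and in mutant 1: 25, 10, 8 and 12 members held more than 1 of 6, and they summed to 299, 316, 332 and 393 CPM, with Omp, of mature olfactory neurons, at 0. More than 1 marker of glia or melanocytes was held by 8, 4, 4 and 4 members and of mural cells by 4, 1, 7 and 4. Macrophage markers reached at most 4.13 CPM in sum and the muscle markers Myod1 and Myog were at 0. Results of the genotype comparisons that were found to rest on these cells are given with and without them.

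Matn1, Col11a2 and Sox5 are shown by the 250 bases before their RefSeq start (GRCm38.p6), because Matn1 is a rule gene that differed strongly along the Col2a1 level of the chondrocytes, Col11a2 had the largest such ratio outside the rule, and Sox5 encodes a partner of SOX9. The letters ACAAAG, the letters ACAATG and the letters ACAAGG, cores to which SOX proteins bind, were searched on both strands, and matches are in capitals. No pair of such matches can overlap.
Matn1, chr4:130944135-130944384, plus strand: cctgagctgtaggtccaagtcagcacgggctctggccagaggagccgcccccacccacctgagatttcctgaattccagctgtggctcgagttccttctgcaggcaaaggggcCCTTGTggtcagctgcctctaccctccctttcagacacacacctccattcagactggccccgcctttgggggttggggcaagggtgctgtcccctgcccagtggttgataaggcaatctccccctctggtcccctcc
Col11a2, chr17:34038888-34039137, plus strand: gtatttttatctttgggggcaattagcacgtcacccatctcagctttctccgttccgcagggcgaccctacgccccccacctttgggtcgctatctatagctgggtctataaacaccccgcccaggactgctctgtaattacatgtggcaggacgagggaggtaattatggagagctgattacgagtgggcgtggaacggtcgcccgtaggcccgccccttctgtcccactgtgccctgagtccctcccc
Sox5, chr6:143947107-143947356, minus strand: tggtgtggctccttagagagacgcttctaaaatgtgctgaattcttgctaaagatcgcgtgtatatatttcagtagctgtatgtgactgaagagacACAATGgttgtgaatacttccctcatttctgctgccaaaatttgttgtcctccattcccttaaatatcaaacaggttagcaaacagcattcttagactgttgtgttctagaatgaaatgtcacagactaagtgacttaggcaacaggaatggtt
The Sox5 window lies inside the longer Sox5 gene of the GENCODE annotation. The Matn1 and Sox5 windows hold 1 match each and that of Col11a2 holds 0. Such a match was found in 3 of 7 windows (42.9%) of the 6 rule genes with an entry, in 8 of 26 windows (30.8%) of 17 of the 20 leading genes named below, and in 11293 of 32851 windows (34.4%) over all genes, so its share in these genes was near that of all genes. Col2a1 had no entry.

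Values of the rule genes chose the cells and are given as a description. Col2a1 (chr15:97975602-98004695, GRCm38), the type II collagen chain, stood at 4385, 2055, 2146 and 5354 CPM in control 1, control 2, mutant 1 and mutant 2. Matn1 (chr4:130944385-130955475), matrilin 1, a cartilage filament protein, stood at 1157, 292, 607 and 1575 CPM in the same order. Control 1 and mutant 2 were the high libraries for both, so 1 library of each genotype was high and 1 was low. A member held a median of 17, 11, 10.5 and 17 Col2a1 UMIs, and all 8 further genes were seen in 31, 5, 8 and 37 members. At the edge of the rule, 56 members had 5 or 6 Col2a1 UMIs and 64 cells outside had 3 or 4 with enough further genes, 47 members had exactly 3 further genes and 22 cells outside had 2, and 11 cells were left out for Sp7 alone.

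Genes that the rule did not use were led by cartilage genes. Of 10056 genes at 10 CPM or more in chondrocytes or in other cells, 235 (2.34%) were at least 2 times as high in chondrocytes as in all other kept cells (ratio of mean CPM over the 4 libraries, each with 10 CPM added), and 305 (3.03%) were at least 2 times lower. Among 30 other cartilage matrix genes at that level, 21 reached that ratio and 0 fell to the lower one, with a median ratio of 3.55 against 0.984 for all genes. Osteoblasts here were kept cells with at least 1 Sp7 UMI and fewer than 5 Col2a1 UMIs. They also held at least 2 of Runx2, Alpl, Ibsp, Spp1, Col1a1 and Dlx5. All other kept cells include these osteoblasts, except where said. Against osteoblasts 373 of all genes (3.71%) were at least 2 times as high and 148 (1.47%) at least 2 times lower, and of the 30 matrix genes 21 and 1 were. The counts of the lists below are to be set against these shares of all genes. All are descriptions of cells chosen by cartilage genes, with no test. In the order of their ratio, the leading 20 genes outside the rule were Mia, Matn4, Col11a2, Cytl1, Col11a1, Sorbs2, Susd5, Sox9, Sox5, Csgalnact1, Wwp2, S100b, Papss2, BC006965, Col27a1, Unc5c, Xylt1, Cspg4, Chst11 and Sox6.

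The fibril partners of type II collagen were among them. Col11a1 was at 3211, 2116, 2293 and 3696 CPM in control 1, control 2, mutant 1 and mutant 2, against a mean of 163 ± 22.2 (SD, n = 4 libraries) in all other cells and 382 ± 149 in Sp7-positive osteoblasts. Col11a2 was at 498, 156, 298 and 697 CPM, against 10.0 ± 5.63 in other cells. Both chains of type XI collagen were above every library of both comparison groups, and both followed the order of Col2a1 by having their highest values in control 1 and mutant 2. Mia, a small secreted cartilage protein, was at 1109, 739, 754 and 977 CPM against 27.3 ± 2.00. Matn4, Cytl1 and Susd5, a matrilin, a secreted protein and a cartilage membrane protein, averaged 552 ± 164, 206 ± 66.8 and 122 ± 59.8 CPM, against 13.8, 2.75 and 0.914 in other cells. Not all matrix genes set these cells apart: the proteoglycan genes Vcan and Lum averaged 303 and 261 CPM in chondrocytes and 336 and 435 in other cells.

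**Figure D1:**
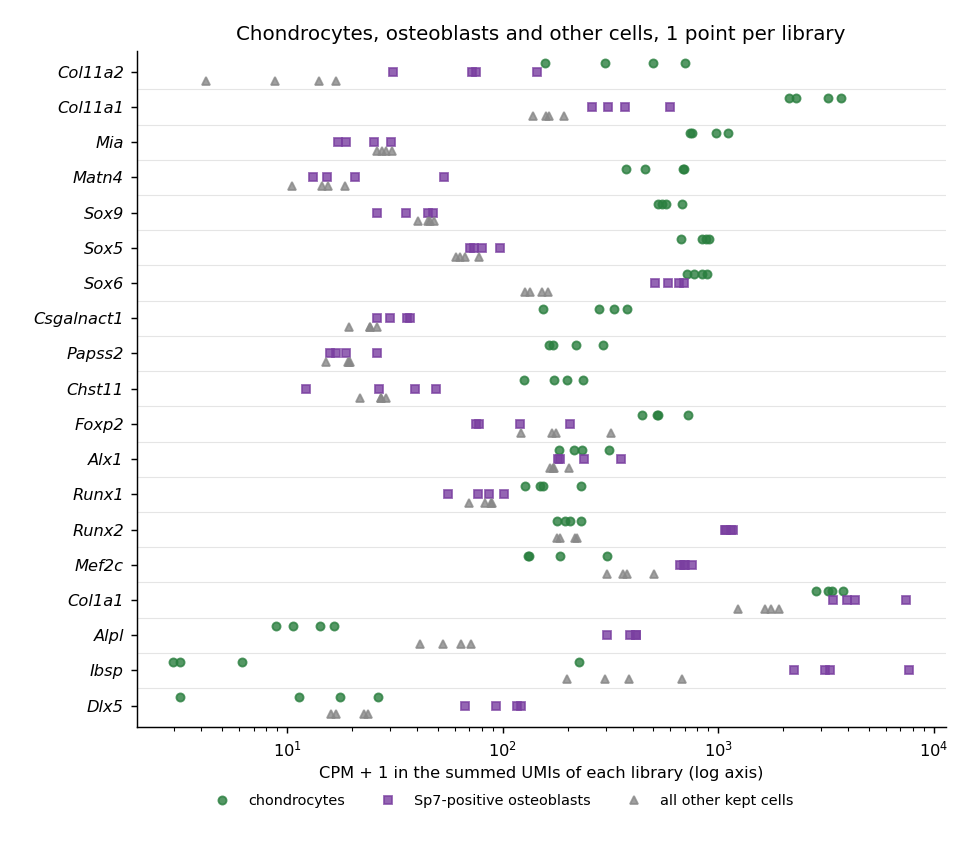
Each point is the CPM + 1 (log axis) of a gene in the summed UMIs of 1 library, for chondrocytes, Sp7-positive osteoblasts and all other kept cells, with 4 libraries each. The other kept cells include the osteoblasts. Cartilage matrix, Sox and sulfation genes lie to the right in chondrocytes (Col11a2 156 to 697 CPM). Runx2 and Alpl lie to the right in osteoblasts, which Runx2, Alpl, Ibsp, Col1a1 and Dlx5 helped to choose. The single high Ibsp value of chondrocytes (224 CPM) is mutant 2.

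In the sums over all members, the Sox trio was steadier over the libraries than Col11a1, Col11a2, Mia, Matn4, Cytl1 and Susd5. These sums mix the Col2a1 ranges defined below, and in the high range Sox9 ran from 760 to 1772 CPM. Sox9 (chr11:112782224-112787760) stood at 548, 675, 526 and 574 CPM, a mean of 581 ± 66.1 against 43.9 ± 3.23 in other cells and 37.5 in osteoblasts. Sox5 averaged 822 ± 106 CPM against 66.1 and 79.4. Sox6 averaged 801 ± 73.5 CPM against 143 in other cells, but osteoblasts held 610 ± 82.9, a ratio to osteoblasts of only 1.31. Of 23 chondrocyte transcription factors at that level, 6 were at least 2 times as high as in other cells and 3 (Mef2c, Glis3 and Pax1) at least 2 times lower. Beside the trio the 6 were Foxa3, Nfatc1 and Creb3l2, a factor that drives secretory cargo genes in chondrocytes, at 198 against 68.2 CPM. Runx2, which drives bone and late cartilage, averaged 201 ± 21.9 CPM, below the 1122 of osteoblasts. It was close to the 199 of all other cells, but these include the osteoblasts. After thinning, 40.2%, 34.1%, 37.1% and 33.0% of chondrocytes held Runx2 in control 1, control 2, mutant 1 and mutant 2. In other cells without the osteoblasts the shares were lower, at 18.7%, 16.0%, 15.9% and 18.0%. Alpl, the mineralisation phosphatase, averaged 11.5 CPM against 56.4 in all other cells and 380 in osteoblasts. Runx2 and Alpl are among the genes that chose the osteoblasts, so their levels there are a description.

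Aggrecan carries long sulfated chains. Of 25 glycosaminoglycan genes at 10 CPM or more, 8 were at least 2 times as high as in other cells and 0 at least 2 times lower, with a median ratio of 1.69 (1.38 against osteoblasts). Xylt1, which attaches the first sugar, stood at 240, 180, 222 and 267 CPM against 31.4 ± 2.58 in other cells. Csgalnact1, which starts chondroitin chains, stood at 328, 153, 279 and 376 CPM against 22.5 ± 2.96. Papss2, which makes the sulfate donor, stood at 217, 162, 171 and 290 CPM against 17.3 ± 2.14. For each of these 3 genes the lowest chondrocyte library lay above every library of other cells and of osteoblasts. The sulfate importer Slc26a2 averaged 66.6 against 10.4 CPM, the sulfotransferase Chst11 183 against 25.3, and Ugdh, which makes the glucuronate precursor, 241 against 61.6. In contrast, Ext1 of the heparan sulfate branch averaged 288 CPM in chondrocytes and 302 in other cells.

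Genes for collagen folding and export differed less from other cells, and hardly from osteoblasts, which also secrete collagen. Of 44 such genes, 14 were at least 2 times as high as in other cells and 0 at least 2 times lower, with a median ratio of 1.46, but 6 were at least 2 times as high as in osteoblasts, with a median of 1.07. Plod2, a lysyl hydroxylase of collagen, averaged 310 ± 64.7 CPM against 59.9 in other cells and 97.9 in osteoblasts. Loxl3, which crosslinks collagen, averaged 60.9 ± 8.74 against 5.98 and 5.12. Serpinh1, the collagen chaperone HSP47, averaged 1315, 712 and 1249 CPM in the 3 kinds of cells.

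Of the 16 listed genes of late maturation, 9 reached 10 CPM in chondrocytes or in other cells; of these 1 was at least 2 times as high as in other cells and 5 were at least 2 times lower. Col10a1, the collagen of hypertrophic cartilage, had 1 UMI in all chondrocytes, in control 1. Ihh, the signal of prehypertrophic cells, had 3 UMIs, all in mutant 2, and Mmp13, a collagenase of the last stage, had 0. After each cell was thinned to 2500 UMIs, 0 of 92, 44, 35 and 91 members held a UMI of Col10a1 or Ihh. The upper limits of the exact 95% binomial intervals for the share of cells with such a UMI were 3.93%, 8.04%, 10.0% and 3.97%. Unthinned, 1 member of control 1 and 3 of mutant 2 held one, so thinning removed UMIs that were there, and the limits do not bound the share of cells that express the genes. Pth1r, the receptor that holds chondrocytes before hypertrophy, averaged 36.1 CPM, below the 94.8 of other cells and the 208 of osteoblasts.

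Signalling genes divided by receptor. Of the 64 listed genes, 53 reached 10 CPM in chondrocytes or in other cells; of these 5 were at least 2 times as high as in other cells and 6 at least 2 times lower, with a median ratio of 0.978. Fgfr3, the FGF receptor of cartilage, stood at 50.5, 39.5, 19.6 and 78.4 CPM against 5.86 in other cells, while Fgfr1 averaged 156 against 159. Bmpr1b, a BMP receptor of cartilage condensations, averaged 123 ± 17.6 CPM against 50.7 in other cells and 11.9 in osteoblasts, and its widespread relative Bmpr1a averaged 159 against 161. The BMP and Wnt antagonists Nog and Sfrp1 averaged 31.98 against 6.67 CPM and 196 ± 12.1 against 71.1. Tgfbr3, a TGF-beta coreceptor, was lower than in other cells, at 53.9 against 213 CPM.

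Positional factors differed from other cells in both directions. The 15 listed Hox genes, which mark crest behind the face, had 0 UMIs in chondrocytes of all 4 libraries, and they were also low in other cells. Of 47 facial factors at 10 CPM or more, 6 were at least 2 times as high as in other cells and 11 at least 2 times lower. Over all genes these shares were 2.34% and 3.03%. Foxc1 stood at 121, 151, 116 and 77.0 CPM against 23.4 in other cells and 19.3 in osteoblasts. Foxp2 stood at 440, 721, 518 and 524 CPM against 195 and 119. Six2 and Msx2, of facial mesenchyme and skull, averaged 91.0 against 30.5 CPM and 29.9 against 9.50. Alx1, a factor of frontonasal crest, averaged 234 ± 55.6 CPM in chondrocytes, 177 in other cells and 238 in osteoblasts. Dlx5, of jaw and bone, averaged 13.6 CPM against 98.3 in osteoblasts, which it helped to choose.

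The chondrocytes were not uniform. By Col2a1 UMIs per 10000 of a cell, 74 cells lay below 10 (low), 109 between 10 and 40 (middle) and 106 at 40 or above (high). The limits were set after the values were seen, and 47 and 19 cells lay within 20% of the lower and the upper one. Whether the ranges hold separate cell types was not tested. The low range held 26, 15, 16 and 17 cells in control 1, control 2, mutant 1 and mutant 2, the middle range 36, 23, 10 and 40, and the high range 41, 9, 10 and 46. The very deep cells with the most Epcam in control 1, control 2 and mutant 1 lay in the low range. They held 92538 of its 358807 UMIs in control 1, 44272 of 202558 in control 2 and 100451 of 314412 in mutant 1. Each had 0 UMIs of Col1a1, and no value of the low range is given without them. Since Col2a1 chose the cells, what moved with it is described without a test. Of 4236 genes at 50 CPM or more in either range, 404 (9.54%) were higher and 436 (10.3%) lower in the high than in the low range in every library against every library.

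Type I collagen and Matn1 were seldom high in the same cell. Col1a1, of perichondrium, bone and connective tissue, summed to 4061, 4414, 3333 and 7766 CPM in the low range of control 1, control 2, mutant 1 and mutant 2, and to 198, 68.8, 12.3 and 250 CPM in the high range. Matn1 summed to 2.79, 83.9, 3.18 and 0 CPM in the low range and to 3657, 1548, 3561 and 3674 CPM in the high range. All 17 Matn1 UMIs behind the 83.9 CPM of control 2 came from its very deep cell. The 2 genes moved in opposite directions in each library. Of 262 members thinned to 2500 UMIs each, 77 held at least 3 UMIs of Matn1, 98 held at least 3 of Col1a1, 2 held both and 89 held neither.

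**Figure D2:**
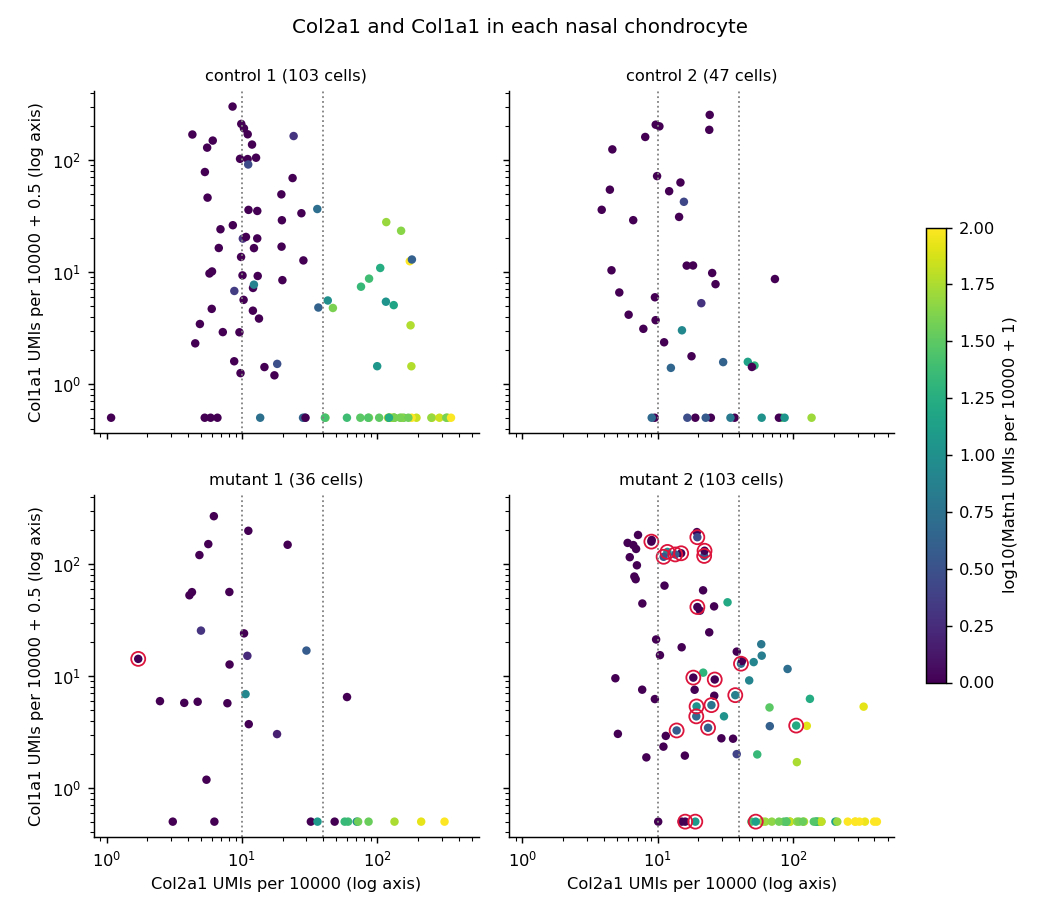
Each point is 1 chondrocyte, with Col2a1 UMIs per 10000 on the x axis, Col1a1 UMIs per 10000 + 0.5 on the y axis (both log axes) and Matn1 as colour, in 1 panel per library; rings mark cells with more than 1 endothelium marker (22 of them in mutant 2). Dotted lines mark 10 and 40 Col2a1 UMIs per 10000. Most cells right of the second line lie at or near the bottom of the Col1a1 axis, where Col1a1 is 0, and cells with much Col1a1 lie to the left and hold little Matn1.

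Of 26 listed matrix genes outside the rule at 50 CPM or more in either range, 13 were higher and 4 (Bgn, Ogn, Tnc and Vcan) lower in the high range without overlap, with a median ratio of 4.08 against 0.973 for all genes. Mgp, an inhibitor of mineralisation, was among the other 9: it was lower in the high than in the low range in control 2 and mutant 1 and higher in control 1 and mutant 2. Of 17 glycosaminoglycan genes 9 were higher and 0 lower. Examples were chosen after their values were seen. Col11a2 averaged 23.0 ± 15.8 CPM in the low, 136 ± 86.7 in the middle and 1338 ± 497 in the high range (SD, n = 4 libraries). Csgalnact1 went from 35.7 ± 18.5 to 881 ± 228 CPM between the low and the high range, Papss2 from 50.1 ± 17.6 to 588 ± 121, and Fgfr3 from 7.95 ± 5.04 to 124 ± 24.7. Comp and Chad, matrix proteins that bind collagen, were at 0 in the low range of all 4 libraries and averaged 75.8 and 81.0 CPM in the high range. Sox9 and Sox5 were already present in the low range, at 356 ± 54.6 and 365 ± 155 CPM, and reached 1072 ± 476 and 1728 ± 261 in the high range. The ratio of the high to the low range was 2.96 for Sox9, 4.64 for Sox5 and 4.85 for Sox6. It was 40.8 for Col11a2 and 19.5 for Csgalnact1, which were among the largest outside the rule. The list medians were 4.08 for matrix and 2.19 for glycosaminoglycan genes, so Sox5 and Sox6 lay above both and Sox9 between them.

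Of 19 perichondrium and tendon genes, 17 were lower and 1 (Cthrc1) higher in the high range without overlap, with a median ratio of 0.283. Thbs2, of perichondrium and tendon, averaged 258 ± 92.7 CPM in the low and 5.09 ± 5.88 in the high range. Dcn, a small proteoglycan of fibrous tissue, averaged 269 ± 159 and 22.8 ± 18.0 CPM, and Col3a1 2228 ± 681 and 280 ± 102. Runx2 went from 239 ± 47.4 to 84.9 ± 56.3 CPM and the mesenchymal factor Prrx1 from 339 ± 75.4 to 139 ± 13.8. Alx1 did not follow them, at 180 ± 79.7 CPM in the low and 305 ± 113 in the high range, higher in the high range in 4 of 4 libraries. Wwtr1 averaged 120 ± 22.6, 141 ± 31.8 and 114 ± 68.2 CPM in the 3 ranges, which overlapped.

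**Figure D3:**
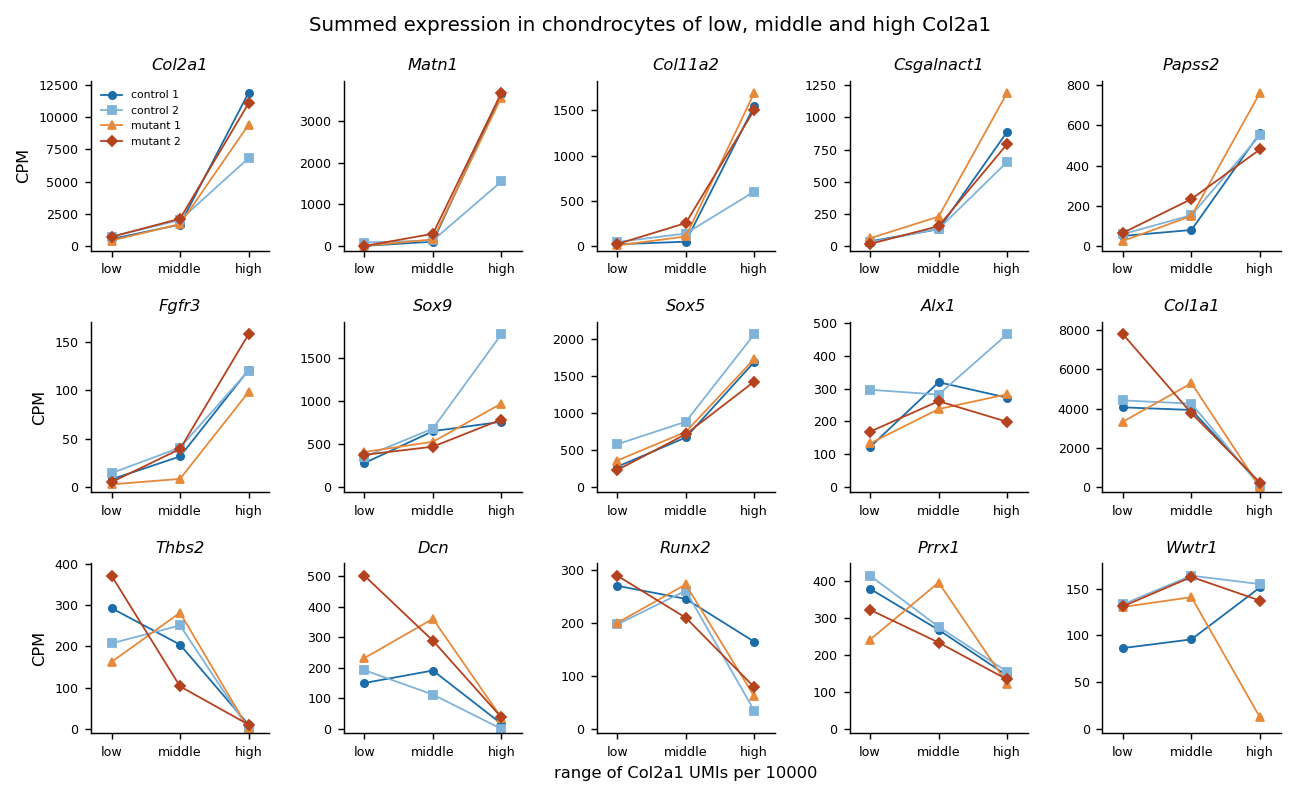
CPM of 15 genes (y axis) in the summed UMIs of the low, middle and high range of Col2a1 UMIs per 10000 (x axis), with 1 line per library. Matn1, Col11a2, Csgalnact1, Papss2 and Fgfr3 are higher, and Col1a1, Thbs2, Dcn, Runx2 and Prrx1 lower, in the high than in the low range of all 4 libraries, while the Wwtr1 lines cross.

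The share of chondrocytes did not differ between the genotypes beyond the spread of the libraries. Of the kept cells of control 1 they made up 2.53% (exact 95% binomial interval 2.07 to 3.06). Control 2 had 1.90% (1.40 to 2.52), mutant 1 had 1.20% (0.843 to 1.66) and mutant 2 had 2.46% (2.01 to 2.97). The groups overlapped, with mutant 1 lowest and mutant 2 next to the highest. The means were 2.21% ± 0.444 and 1.83% ± 0.886 (SD, n = 2 each), a difference of -0.385 percentage points (two-sided exact permutation test, p = 0.667; 2 against 2 libraries cannot go below 0.333). Intervals cover counting error only. Without the cells with endothelium markers the difference was -0.664 points, and without mutant 1 it was 0.24 points, in the other direction. The high range of Col2a1 made up 39.8%, 19.1%, 27.8% and 44.7% of the chondrocytes, with means of 29.5% and 36.2% (exact permutation p = 0.667).

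Most chondrocytes held cell cycle RNA. After thinning to 2500 UMIs, 85.9%, 72.7%, 82.9% and 90.1% of the members of control 1, control 2, mutant 1 and mutant 2 held at least 2 UMIs of 69 S and G2/M genes. So did 84.1% to 85.1% of other cells, here without the osteoblasts, and 82.1%, 82.8%, 80.7% and 91.1% of osteoblasts. Such RNA was thus not particular to chondrocytes. The chondrocyte means were 79.3% ± 9.29 in controls and 86.5% ± 5.13 in mutants (exact permutation p = 0.667), and unthinned shares averaged 96.4% and 99.5%. In the high Col2a1 range the means were 77.6% and 77.9%, and in the lower ranges together 79.9% and 89.6% (exact permutation p = 0.333). The lowest library was mutant 1 in the high range (66.7%, 6 of 9 cells) and control 2 in the lower ranges (73.0%, 27 of 37). Such a share counts RNA and does not show division.

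**Figure D4:**
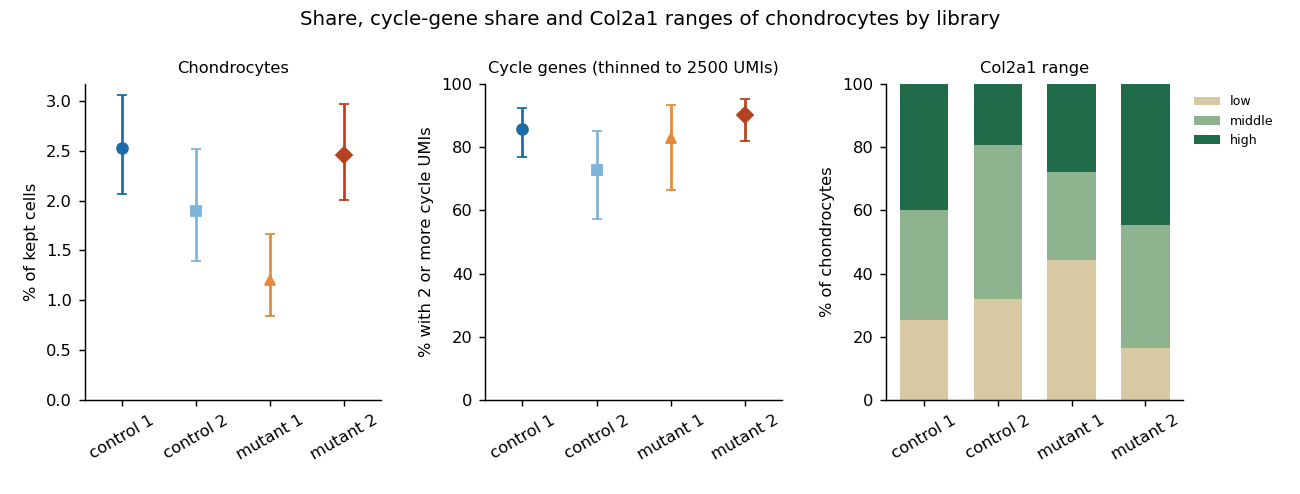
For each library, the share of chondrocytes among kept cells and the share of thinned chondrocytes with 2 or more S and G2/M UMIs (points, with exact 95% binomial intervals), and the share of chondrocytes in the low, middle and high Col2a1 range (stacked bars to 100%). Mutant 1 has the lowest share of chondrocytes (1.20%) and control 2 the lowest shares in the high range (19.1%) and with cycle RNA (72.7%).

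The series asks what loss of YAP and TAZ does in neural crest cells, and the comparison here is that of chondrocytes between the genotypes, beginning with the targeted genes. Yap1 (chr9:7931999-8004596) stood at 56.7, 57.0, 68.7 and 49.5 CPM in chondrocytes of control 1, control 2, mutant 1 and mutant 2, on 55, 26, 35 and 36 UMIs. Its log2 change was 0.01 ± 0.28 (SE, n = 2 against 2, edgeR adjusted p = 1). Wwtr1 (chr3:57455649-57575910) stood at 109, 149, 114 and 144 CPM, a log2 change of 0.01 ± 0.26 (edgeR adjusted p = 1). The groups overlapped for both. Tags come from the 3 prime end of a transcript, so RNA from an allele that lost a floxed exon can still be counted, and these values check neither the labels nor the recombination. In the other kept cells of the same 4 libraries Yap1 stood at 65.2, 65.4, 56.2 and 56.1 CPM, and the change in chondrocytes was not found to differ from theirs (difference 0.26 ± 0.31 on the log2 scale, edgeR adjusted p = 1).

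No gene passed the test between the genotypes. Of 8071 genes tested in chondrocytes with edgeR's quasi-likelihood test, 0 (0.00%) had a Benjamini-Hochberg adjusted p under 0.05, and 311 had an unadjusted p under 0.05. DESeq2, run on 17888 genes without the filter on low counts, also called 0, with 82 at an unadjusted p under 0.05. With 1 library left out, where the lone library of a group is assumed to vary like the other group, edgeR called 25 genes without control 1, 0 without control 2, 52 without mutant 1 and 61 without mutant 2. In both mutant libraries 1454 genes (18.0%) were above, and 1157 (14.3%) below, both controls, and the median log2 change was 0.005.

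The lists are read against those 2 shares. Of 29 cartilage matrix genes tested outside the rule, 2 lay above and 1 below without overlap, with a median log2 change of 0.11, and of the 9 rule genes 0 did, with a median of 0.37. Both medians changed sign with the library left out, running from -0.35 (without mutant 2) to 0.46 (without mutant 1) for the matrix genes and from -0.34 (without mutant 2) to 0.97 (without control 1) for the rule genes. Control 1 and mutant 2 shared the high levels of both lists' leading genes. Of 22 glycosaminoglycan genes 5 lay above and 3 below (median 0.20), of 44 collagen folding genes 3 and 5 (-0.004), of 19 transcription factors 3 and 2 (0.17) and of 42 signalling genes 7 and 6 (-0.03). The glycosaminoglycan median was -0.0024 without control 2 and 0.0047 without mutant 2. Sox9 had a log2 change of -0.17 ± 0.19 (edgeR adjusted p = 1). Among positional factors 6 of 34 lay above and 7 below (-0.08), and among 21 perichondrium and tendon genes 2 and 3 (-0.003).

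Cell cycle genes were mostly higher in the mutant libraries without passing the test. Of 63 S and G2/M genes tested 29 lay above and 3 below both controls, with a median log2 change of 0.40, and 6 had an unadjusted p under 0.05, all higher. Mki67, a marker of cycling cells, stood at 103, 94.3, 165 and 133 CPM in control 1, control 2, mutant 1 and mutant 2. Top2a, which untangles DNA before mitosis, stood at 223, 151, 279 and 238 CPM, but Pcna and Mcm2, of DNA replication, were lower in both mutants. The list's median was 0.68 without control 1, 0.19 without control 2 and 0.14 without cells that held more than 1 marker of a cell type outside the skeleton. Of 24 hypoxia and glycolysis genes 12 lay above and 1 below (median 0.17), with Slc2a1, the glucose transporter, at 82.5, 76.7, 114 and 103 CPM; none of the 12 had an unadjusted p under 0.05. Their median was 0.10 without the cells with epithelium markers.

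Targets of YAP and TAZ gave values in the other direction for a few genes. Of 19 tested, 3 lay above and 5 below both controls (median -0.21), and 3 of the 5 had an unadjusted p under 0.05. The median was -0.0037 without control 2, and between -0.38 and -0.24 without each of the other libraries. Ccn2 (chr10:24595442-24598683), connective tissue growth factor, stood at 144 and 232 CPM in controls and 55.0 and 100 in mutants, a log2 change of -1.23 ± 0.33 (edgeR adjusted p = 1). Its UMIs came from 39, 28, 9 and 35 cells, and no cell held more than 25. Ccn1, a related secreted protein, stood at 278, 472, 212 and 234 CPM (log2 change -0.75 ± 0.26) and the receptor kinase Axl at 28.9, 28.5, 13.7 and 15.1 (-0.99 ± 0.40, both edgeR adjusted p = 1). In the high Col2a1 range Ccn2 stood at 124, 224, 49.1 and 92.6 CPM, and in the low range at 181, 252, 35.0 and 81.9. In the middle range, where the groups overlapped, it stood at 121, 215, 115 and 123 CPM.

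**Figure D5:**
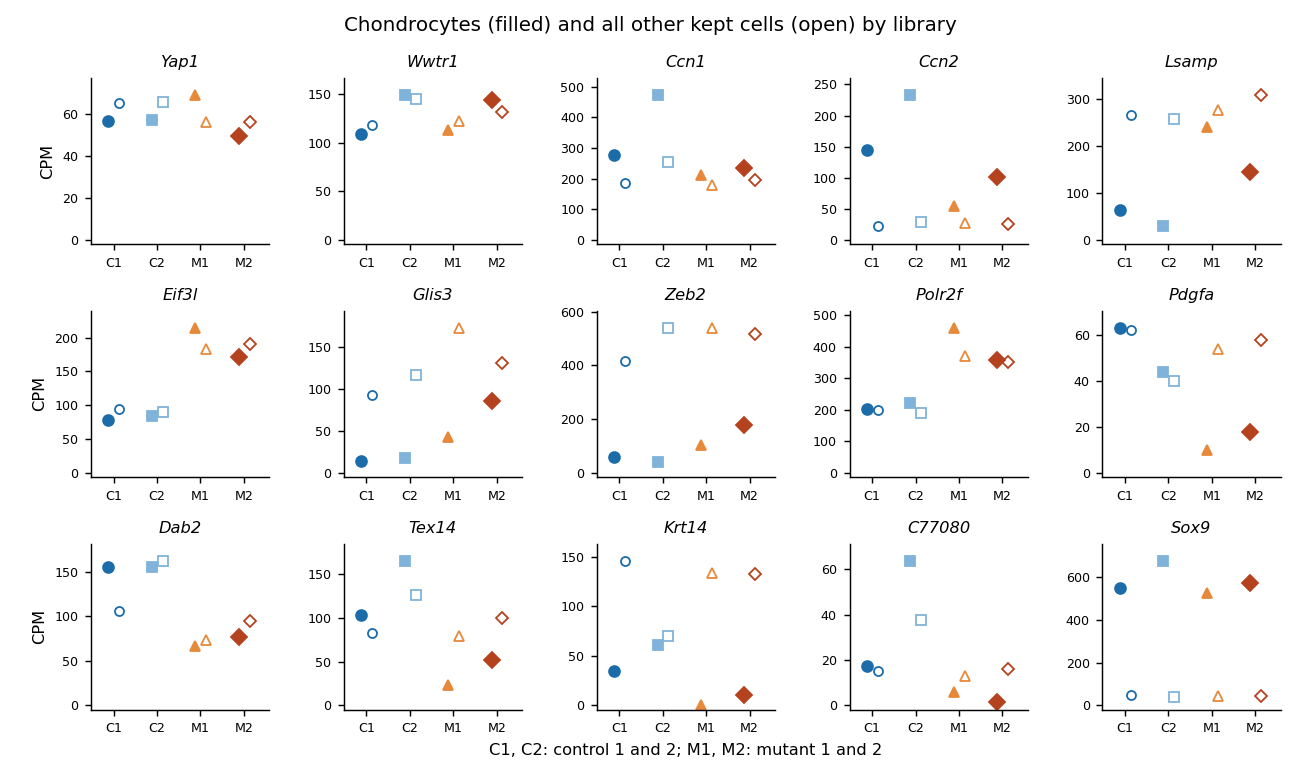
CPM (y axis) of 15 genes in control 1, control 2, mutant 1 and mutant 2, with filled points for chondrocytes and open points for all other kept cells of the same library. Eif3l and Polr2f are higher in mutants in both kinds of cells, Ccn2 is lower in both mutants in chondrocytes (144 and 232 against 55.0 and 100 CPM) and overlaps in other cells, and Yap1, Wwtr1 and Sox9 overlap in chondrocytes.

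The 5 genes with the smallest p in each direction did not pass the test. Higher were Lsamp (log2 change 1.89), Eif3l (1.22), Glis3 (2.05), Zeb2 (1.46) and Polr2f (0.92), with edgeR adjusted p from 0.679 to 0.855. Lsamp (chr16:39984361-42181679), a neuronal adhesion protein, stood at 63.9, 30.7, 241 and 146 CPM, from 26, 4, 16 and 32 cells. Its log2 change was 1.09 without members that held more than 1 marker of a cell type outside the skeleton, and ran from 1.53 (without mutant 1) to 2.60 (without control 1) with 1 library left out. Eif3l, a subunit of a translation factor, and Polr2f, a subunit shared by RNA polymerases, lie near Sox10 on chromosome 15 (chr15:79075179-79094405 and chr15:79141009-79151774). In mutant 1 the top cell of each gene held 37 of the 123 Lsamp UMIs, 30 of the 109 Eif3l UMIs and 73 of the 234 Polr2f UMIs. Eif3l stood at 78.4, 83.3, 214 and 171 CPM in chondrocytes and at 93.6, 89.3, 183 and 190 in other cells, so it was higher in mutants in both. Its change did not differ between them by the test (0.23 ± 0.24, edgeR adjusted p = 1), nor did that of Polr2f (0.07 ± 0.20, adjusted p = 1). Of 19 tested genes of the Sox10 neighbourhood 6 lay above both controls (H1f0, Ankrd54, Eif3l, Micall1, Polr2f and Sox10) and 4 below (Pdxp, Triobp, Kdelr3 and Cby1), with a median of -0.09. Sox10 itself stood at 16.5, 19.7, 23.6 and 22.01 CPM, on 16, 9, 12 and 16 UMIs (log2 change 0.34 ± 0.41, edgeR adjusted p = 1).

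Lower were Pdgfa (-1.94), Dab2 (-1.13), Tex14 (-1.74), Krt14 (-2.84) and C77080 (-3.41), with edgeR adjusted p from 0.679 to 0.887. Pdgfa, a growth factor, had 61, 20, 5 and 13 UMIs, but 49 of the 61 and 11 of the 20 came from 1 cell each, the cells with the most Epcam in control 1 and control 2. Krt14, a keratin of basal epithelium, had 34, 28, 0 and 8 UMIs, of which 28 in each control came from those same cells. Tex14, a gene known from germ cells, had 100, 75, 12 and 38 UMIs from 35, 25, 6 and 25 cells, with at most 15 in any. Dab2, an endocytic adaptor, stood at 156, 156, 66.7 and 77.0 CPM, and in other cells at 106, 162, 73.1 and 95.3.

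Whether a change in chondrocytes differed from that in all other cells of the same libraries was tested directly. In an edgeR fit with library as a block, 53 of 16623 genes (0.319%) passed an adjusted p of 0.05, 38 with a higher and 15 with a lower difference. Of the 53, 35 did not overlap between the genotypes in chondrocytes. Over the 8071 genes tested in chondrocytes, 18.0% lay above and 14.3% below both controls in both mutants. The fit that called the 53 used the same chondrocyte sums, so their lack of overlap is only a description. The count of 53 called genes changed with the setting. The count was 63 without control 1, 25 without control 2, 65 without mutant 1 and 91 without mutant 2, and 20 with at least 10 Col2a1 UMIs required. This fit shares 1 spread between sums of 36 to 103 chondrocytes and the far larger sums of other cells, so a single library or cell can carry a call. Ibsp, a bone matrix protein, led with a log2 difference of 5.18 ± 0.40 (edgeR adjusted p = 3.8e-34), but stood at 5.16, 2.19, 1.96 and 224 CPM in chondrocytes. Without the cells with endothelium markers its difference was -0.06 and without mutant 2 it was -0.32. Without the former, 33 of the 53 genes were still called. Gm6619 (7.22) came to 216 UMIs in 1 cell of mutant 1, and Kcnip4, a potassium channel partner (-3.33), to 92 UMIs in control 2, of which 57 were in 1 cell; without control 2 it was not called (edgeR adjusted p = 1).

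Exactly 4 genes stayed called whichever single library was left out: Lsamp, Tex14, Pdgfa and Krt14. Without the members with epithelium markers, 39 of the 53 genes were still called, but Pdgfa (-0.22 ± 0.51) and Krt14 (-7.55 ± 4.37) were not, each with an edgeR adjusted p of 1. Lsamp differed by 1.75 ± 0.24 (edgeR adjusted p = 2.6e-09) and stood at 266, 258, 278 and 308 CPM in other cells, where the genotypes hardly differed. Tex14 differed by -1.55 ± 0.28 (edgeR adjusted p = 0.000115), at 82.5, 125, 79.3 and 99.8 CPM in other cells. Both were called in each alternative of this fit that was run; leaving out all members with markers from outside the skeleton was not among them.

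Among the other called genes, Ccn2 differed by -1.30 ± 0.27 (edgeR adjusted p = 0.00114), at 21.7, 28.3, 27.2 and 26.4 CPM in other cells. Its call was lost with at least 10 Col2a1 UMIs required (adjusted p = 0.756), without control 2 (0.144) and without mutant 1 (0.369). Negr1, a relative of Lsamp on neurons, stood at 156, 283, 76.6 and 136 CPM (-1.25 ± 0.24, edgeR adjusted p = 0.000178), and Hpse2, a heparanase relative, at 377, 636, 294 and 418 (-0.95 ± 0.19, adjusted p = 0.000338). Zeb2, a repressor, stood at 58.8, 39.5, 104 and 176 CPM (1.28 ± 0.24, edgeR adjusted p = 0.000178). The groups overlapped for Hpse2 and not for Negr1 or Zeb2. Without control 2 none of these 3 was called (edgeR adjusted p = 0.558 for Negr1, 0.609 for Hpse2 and 0.554 for Zeb2), nor were Negr1 (0.277) and Hpse2 (0.689) without mutant 1 or Zeb2 (0.455) without mutant 2.

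Against the Sp7-positive osteoblasts of the same libraries, 249, 94, 110 and 173 cells, 0 of 10216 genes (0.00%) passed, with 372 at an unadjusted p under 0.05. With 1 library left out, 7 to 11 passed (9 without control 1, 7 without control 2, 11 without mutant 1, 7 without mutant 2). The smallest p in each direction belonged to Cdh18, a cadherin (3.08 ± 0.51, edgeR adjusted p = 0.27), and Fst, an inhibitor of activin (-3.44 ± 0.64, adjusted p = 0.522). Foxp2 had a log2 difference of 0.96 ± 0.20 (edgeR adjusted p = 0.658), with a change of -0.17 in chondrocytes and -1.12 in osteoblasts.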

How the data were processed

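Noses were dissociated with papain and collagenase, frozen, and run on a 3 prime droplet kit, per the labels' protocols. The deposited files give untransformed UMI counts for each gene in each barcode: 20170229 to 35887490 UMIs in 2827 to 4846 barcodes a library. Per the file headers they come from Cell Ranger 8.0.1, while the submitters' processing notes name Cell Ranger 4, Seurat 4.3.0 and mm10. Doublets were not removed, because Scrublet (scanpy 1.11.5) called at most 3 cells a library by itself; leaving out its highest scores was an alternative.

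Counts of chondrocytes, of Sp7-positive osteoblasts and of all other kept cells were summed per library and tested in R 4.3.3 with edgeR 4.0.16 (TMM, filterByExpr, quasi-likelihood test, Benjamini-Hochberg over all genes tested, threshold 0.05); DESeq2 1.42.0 was an alternative. Scripts were tested on simulated data. Interaction fits had library as a block. In sums and fits, all other kept cells included the osteoblasts. Shares were compared by a two-sided exact permutation test, with cells thinned to 2500 UMIs where depth mattered. Nothing says that the libraries of a group came from separate litters, so p-values measure the spread between these libraries, which may be technical.

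The members and all gene lists were chosen with earlier results of these data known. Listed genes could be named, as could the 5 genes with the smallest p in each direction where fewer passed, the 20 with the largest ratio to other cells and those leading the interaction fits. Genes named along the Col2a1 level, and single deep cells, were chosen after their values were seen. Sets without members that held endothelium or epithelium markers, and the high and lower Col2a1 ranges alone, were alternatives chosen after seeing the data. The others were size factors, filters on low counts, stricter cells and rules, a replicate block, and leaving out each library. The deviations of same-numbered libraries had a correlation of 0.05 over 8071 genes, which does not pair them. Coordinates are from GENCODE M21 on GRCm38 (32235 of 32285 features matched).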

Additional observations from a re-analysis of the deposited data

Results flagged for a closer look

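The change between genotypes differed between chondrocytes and all other kept cells of the same libraries, by the interaction term of the edgeR fit, for 53 genes, and the genes below are those that led it. Ibsp had a log2 difference of 5.18 and Emcn, an endothelial surface gene, one of 12.11, and both were high in chondrocytes of mutant 2, where 22 members held endothelium markers; Ibsp was at -0.06 without such members. Gm6619 had a difference of 7.22 from 216 UMIs in 1 cell of mutant 1. Kcnip4 had a difference of -3.33, with 92 UMIs in 4 cells of control 2 and 14, 0 and 12 UMIs in control 1, mutant 1 and mutant 2.

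Krt14 (-3.08) and Pdgfa (-2.01) rested in both controls on the member with the most Epcam, and neither was called without members that held epithelium markers (edgeR adjusted p = 1 for each). Lsamp (1.75) and Tex14 (-1.55) were called under each alternative of this fit that was run, with edgeR adjusted p of at most 0.00595 for Lsamp and 0.0363 for Tex14. Ccn2 differed by -1.30, Negr1 by -1.25 and Hpse2 by -0.95, each from values that were lower in mutant than in control chondrocytes on average.

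Zeb2 (1.28), Dcn (1.06) and Glis3 (1.55) differed in the other direction. In chondrocytes Dcn stood at 123 and 134 CPM in controls and 230 and 242 in mutants. Its call was lost without members with endothelium markers (edgeR adjusted p = 0.0611), with at least 10 Col2a1 UMIs required (0.169) and without control 1 (0.162). Glis3, a zinc finger factor, had 14, 8, 22 and 62 UMIs in control 1, control 2, mutant 1 and mutant 2, of which 26 in mutant 2 came from 1 cell. With likely doublets removed its difference was 0.40 (edgeR adjusted p = 1), and it was not called without control 1 (0.185), control 2 (0.164) or mutant 2 (adjusted p = 1). What part these cells have in the differences was not tested.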

How the results depend on the processing

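With groups of 2 libraries and 36 to 103 chondrocytes each, precision is limited by the number of libraries and by single deep cells. The cause of the shifts below was not tested. The count of genes changed between the genotypes was 0 under 15 settings and 73 (49 higher, 24 lower) with no filter on low counts, where 30 of the 73 were outside the main set of genes; leaving out 1 library gave 0 to 61. With a replicate block 0 genes passed (324 at an unadjusted p under 0.05), and this changed no call. The count of genes whose change differed from other cells was 20 with at least 10 Col2a1 UMIs and 25 to 91 with 1 library left out, and from osteoblasts 38 with no filter and 7 to 11 with 1 library left out. The Yap1 change, near 0, turned negative with no filter (-0.0064), after thinning (-0.79), with at least 10 Col2a1 UMIs (-0.073) or 5 further genes (-0.29), with doublets removed (-0.13), without non-skeletal (-0.038) or endothelium (-0.027) markers, and ran from -0.20 to 0.22 with 1 library left out. Wwtr1 did so with no filter (-0.00049), a replicate block (-0.019), after thinning (-0.25), with at least 10 Col2a1 UMIs (-0.092) or 5 further genes (-0.030), without endothelium (-0.045) or epithelium (-0.031) markers and in the high range (-0.64), and ran from -0.23 to 0.23. Ibsp was at -0.064 without endothelium markers and ran from -0.32 to 6.197. The difference in the share of chondrocytes was 0.011 points after thinning and ran from -1.01 to 0.24, and that in the share with Col10a1 or Ihh was 0.97 without thinning.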
